A study of Mus musculus with 8 samples.

Results

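The respiratory chain genes described here are the probes of a mouse Illumina BeadChip whose symbol begins with Nduf, Uqcr, Cox4 to Cox8 or Atp5, or is one of the succinate dehydrogenase genes Sdha to Sdhd. The rule uses symbols alone and found 95 probes of 77 symbols among 25697 probes of 18138 symbols. Of these, 34 symbols match complex I, 1 an assembly factor of complex I (Ndufaf1), 3 complex II, 6 complex III, 17 complex IV and 16 complex V. Ndufa4 is counted with complex I by its symbol, although it was later assigned to complex IV. Sdha, Cox8a, Atp5g1 and Ndufa4l2 were not analysed here. In addition to Ndufaf1, 4 matching symbols name no subunit of these complexes: Cox4nb (now Emc8), Atp5s (now Dmac2l), Atp5sl (now Dmac2) and Cox7a2l, a factor that joins complexes into supercomplexes.

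The respiratory chain sits in the inner mitochondrial membrane. Complexes I and II pass electrons from NADH and succinate to ubiquinone, complex III passes them on to cytochrome c, and complex IV passes them to oxygen. Complexes I, III and IV pump protons, and complex V, the ATP synthase, lets the protons flow back and makes ATP. All but complex II also contain subunits encoded by mitochondrial DNA, which were not analysed here. In the intestine, mature absorptive cells are rich in mitochondria.

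The study measured total RNA of ileal tumours from APCmin/+/VP16LXRa mice, 4 arrays numbered 5 to 8, and from APCmin/+/VP16 (control) mice, 4 arrays numbered 1 to 4. All mice carried the Min allele of Apc, which gives rise to intestinal tumours, were of a mixed C57BL/6J-FVBN strain and were 8 months old. LXRα (gene Nr1h3) is a nuclear receptor activated by oxysterols. VP16 is a viral activation domain, and its fusion to a receptor is used to make the receptor active without ligand. The sources used here do not give the promoter that drives the transgenes. They also do not say whether the arrays come from separate animals, so the p-values rest on the spread between arrays, which may be partly technical. Each array is called a tumour below, and n counts arrays. In whole tumours, fewer cells of a type and less RNA per cell cannot be told apart.

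Between 49.0% and 54.7% of all probes were detected on each array, meaning a detection p-value under 0.05 against the array's negative control beads. Limma tests (two-sided) were run on log2 levels of 13426 probes detected on at least 4 of the 8 arrays, with Benjamini-Hochberg adjustment over all of them. The array of VP16LXRa tumour 5 had the lowest median correlation with the others, 0.869, followed by VP16 tumour 4 with 0.910, and the other 6 lay between 0.932 and 0.942. Values without one or the other array are given beside many of the differences, not all. All 9 epithelial markers on the array and the ileal bile acid binding gene Fabp6 were detected on all 8 arrays, while the ileal bile acid transporter Slc10a2 was detected on none. The brighter Nr1h3 probe averaged 10.10 ± 0.32 in VP16LXRa tumours and 9.81 ± 0.73 in VP16 tumours (log2 level, SD, n = 4 each; limma adjusted p = 0.998). The sources used here do not say whether it can detect the transgene.

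Most respiratory chain genes were expressed in both groups, and none differed between them beyond the test's threshold. Of the 95 probes, 86 probes of 69 genes were tested, and 0 had a limma adjusted p under 0.05, against a background of 0% of the 13426 probes. At an unadjusted limma p under 0.05 there were 2 member probes (2.33%), against 2.53% of all tested probes. They were those of Ndufa12 and Ndufb10, both higher in VP16LXRa tumours, where the background was 1.72%, and 0 were lower, where it was 0.812%. The groups did not overlap for 1 member probe, that of Ndufa12 (1.16%), against 1.74% of all tested probes. VP16LXRa was above VP16 for it, as for 1.01% of all probes, and below for 0 members, against 0.722% of all probes. These shares are near the background. A log2 difference over 0.5 in size was found for 8 member probes (9.3%), against 16.9% of all, and over 1 for 2 (2.33%), those of Atp5f1 and Atp5j, against 3.15% of all. Below 0 were 29 member probes (33.7%), against 49.8% of all.

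With each gene represented by its tested probe of highest mean, the difference of VP16LXRa minus VP16 was above 0 for 48 of the 69 member genes and below 0 for 21. Their median log2 difference was 0.09, within a range of -1.01 (Atp5f1) to 0.68 (Ndufb10). Over all 10159 tested genes 5385 were above 0 and 4774 below, with a median of 0.02. Without VP16LXRa tumour 5 the members' split was 55 to 14 and their median 0.06, beside 4820 to 5109 and -0.01 over all genes. Without VP16 tumour 4 the members' split was 44 to 25 and their median 0.05, beside 5091 to 4814 and 0.02 over all genes. The members' median SD within groups was 0.27 on the log2 scale, against 0.43 for all tested genes. Members and all genes were not matched for level. Among dim members the SD was 0.58 for Cox6b2 but 0.25 for Ndufab1, and the brighter Atp5f1 had 1.49. Ndufab1 and Atp5f1 were chosen here after their values were seen. Whether members vary less than other genes of like level was not tested. The 95% interval of the difference lay within 1 log2 unit of 0 for 53 of 69 members (76.8%) and for 59.3% of all tested genes. The other 16 members have intervals that reach a 2-fold difference, among them Atp5f1, Cox7a2l, Ndufc2 and Cox7a1.

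**Figure D1:**
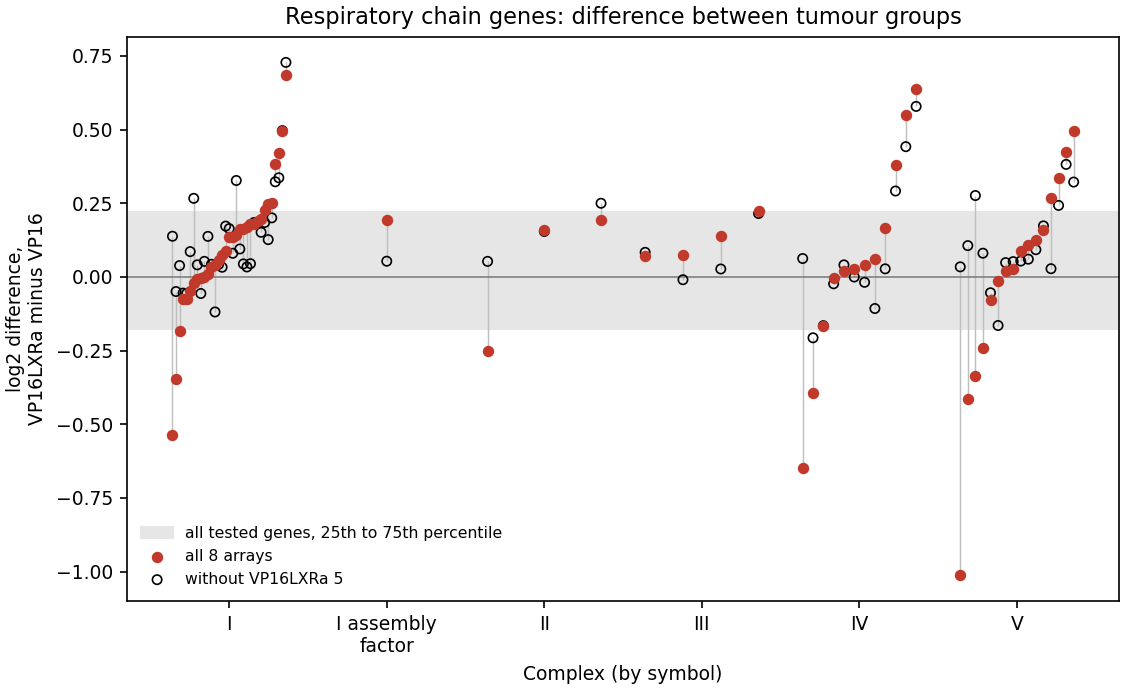
Log2 difference of VP16LXRa minus VP16 tumours for the 69 tested respiratory chain genes, by complex and in order of size. Filled points are all 8 arrays, open points leave out VP16LXRa tumour 5, and the grey band spans the 25th to 75th percentile of all 10159 tested genes; the lowest filled points, such as Atp5f1 at -1.01, lie near 0 without that tumour.

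In complex I, which oxidises NADH, 33 of 34 genes were tested, Ndufa4 among them. The difference was above 0 for 23 and below 0 for 10, with a median of 0.14, and 0 passed the adjusted threshold. Without VP16LXRa tumour 5 the split was 28 to 5 with a median of 0.09, and without VP16 tumour 4 it was 22 to 11 with a median of 0.08. The lowest median with 1 array left out was 0.06, without VP16 tumour 2. Ndufa12, an accessory subunit, had log2 levels of 11.48, 11.56, 11.20 and 11.69 in VP16LXRa tumours 5, 6, 7 and 8, against 11.07, 10.71, 11.02 and 11.14 in VP16 tumours 1, 2, 3 and 4, the order kept below. Every VP16LXRa tumour lay above every VP16 tumour, though the nearest values, 11.20 and 11.14, were close. The log2 difference was 0.50 ± 0.21 (SE), or 1.41-fold, with a limma adjusted p of 0.998. Ndufb10, an accessory subunit of the membrane arm, had levels of 9.59, 9.80, 10.10 and 9.47 in VP16LXRa tumours, against 9.72, 9.13, 8.94 and 8.44 in VP16 tumours. VP16 tumour 1 lay among the VP16LXRa tumours, and the other 3 VP16 tumours lay below all of them. Its log2 difference was 0.68 ± 0.30 (SE), the highest of all members (limma adjusted p = 0.998), and 0.48 without VP16 tumour 4.

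The parts of complex I gave different medians, and the order of those parts changed without VP16LXRa tumour 5. Medians of the parts without any other tumour were not computed. The core subunits, which carry the flavin and the iron-sulfur clusters, had 6 tested genes with a median log2 difference of -0.01, 2 of them above 0. Without VP16LXRa tumour 5 the median was 0.12 and 5 were above 0. Among core subunits, Ndufs7 had the highest difference, 0.25 ± 0.19 (SE), and the flavin-binding Ndufv1 the lowest, -0.07 ± 0.23 (SE), both chosen after their values were seen. Of 13 accessory subunits named Ndufa, 11 were above 0, with a median of 0.14, and of 10 named Ndufb, 8 were above 0, with a median of 0.16. Without VP16LXRa tumour 5 these were 10 of 13 with a median of 0.08, and 9 of 10 with a median of 0.13. The 4 accessory subunits named Ndufc and Ndufs had a median of 0.0054 with 2 above 0, and 0.10 with 4 above 0 without that tumour. Ndufa13 had levels of 13.44, 13.46, 13.62 and 13.42 in VP16LXRa tumours, against 13.84, 13.66, 13.26 and 13.47 in VP16 tumours, a log2 difference of -0.07 ± 0.21 (SE). The VP16LXRa values lay inside the VP16 range. Ndufa4, first described in complex I and later assigned to complex IV, had 13.54, 13.51, 12.90 and 13.21 in VP16LXRa tumours, against 12.10, 12.90, 12.97 and 13.51 in VP16 tumours. Its difference was 0.42 ± 0.32 (SE), 0.16 without VP16 tumour 1, which was the lowest of the 8, and 0.64 without VP16 tumour 4. The assembly factor Ndufaf1 had 9.56, 9.25, 9.33 and 8.44 in VP16LXRa tumours, against 9.53, 8.88, 8.62 and 8.77 in VP16 tumours, and a difference of 0.19 ± 0.31 (SE). It was 0.05 without VP16LXRa tumour 5, the highest of the 8, and 0.43 without VP16LXRa tumour 8, the lowest.

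**Figure D2:**
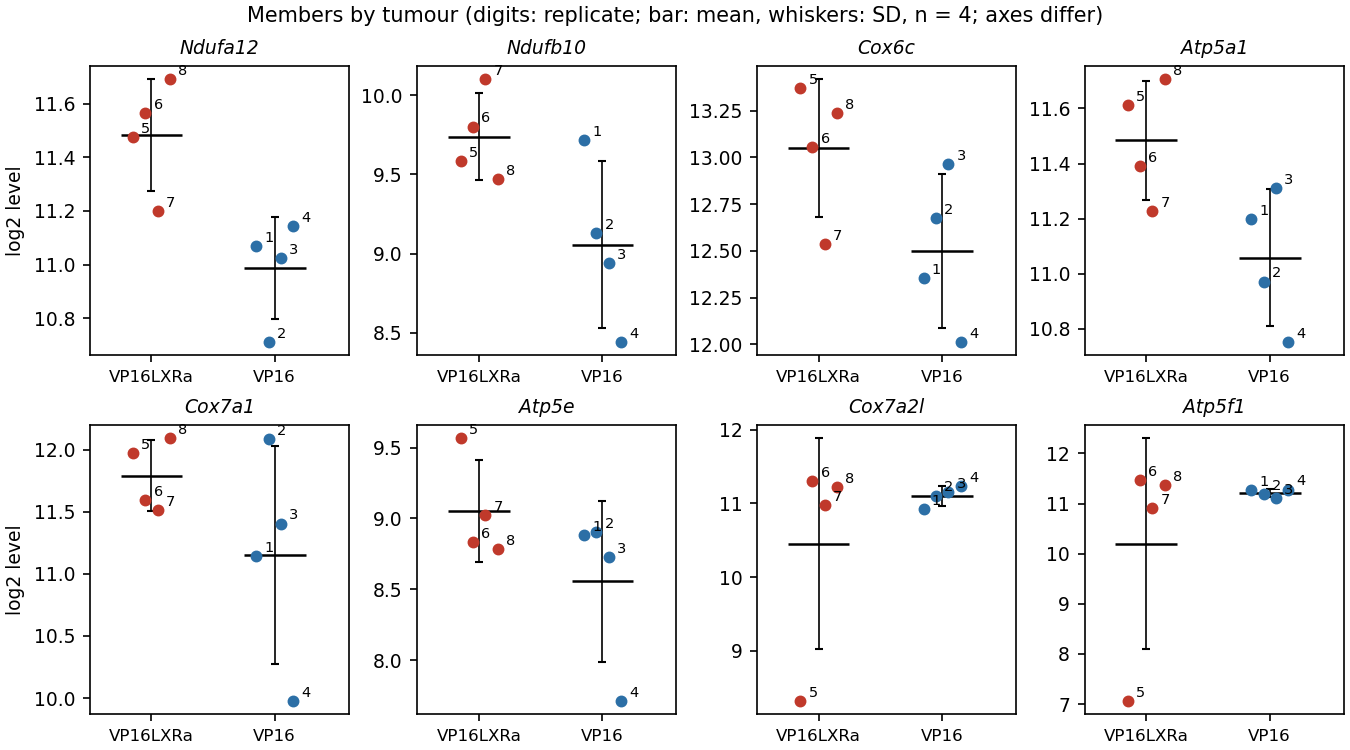
Log2 level of 8 respiratory chain genes in each tumour, VP16LXRa left and VP16 right, with the replicate number beside each point, the mean as a bar and the SD as whiskers (n = 4 each; the axes differ between panels and do not start at 0). Ndufa12 is the gene whose groups do not overlap, VP16 tumour 4 is the lowest for Ndufb10, Cox6c, Atp5a1, Cox7a1 and Atp5e, and VP16LXRa tumour 5 is the lowest for Cox7a2l and Atp5f1.

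Promoters of nuclear genes for the respiratory chain are known to be bound by NRF1, GABP, YY1 and estrogen-related receptors (ERR), so the windows of 250 bases before to 50 bases after the start of each gene were searched on both strands. All 77 symbols matched a RefSeq gene of GRCm38.p6, 72 by symbol and 5 by synonym, and 63 had a window. The NRF1 motif, GCGCA and GCGC with any 1 base between them, was found in 14 of 63 member genes (22.2%), against 1254 of 17492 protein-coding genes (7.17%). The YY1 motif AANATGGC was found in 18 (28.6%), against 7.46%. By complex these were 12 of 30 genes of complex I, 5 of 15 of complex V and 1 of 11 of complex IV. The GABP motif CCGGAAGT was found in 4 (6.35%), against 5.69%, and the ERR motif TNAAGGTCA in 3 (4.76%), against 1.19%. An LXR-type direct repeat, AGGTCA and AGGTCA with any 4 bases between them, was found in 0 of the 63 members and in 0 of the 17492 genes. With no match in any gene, this exact search cannot tell members from other genes and does not show whether LXR sites are present. Motifs were counted separately even where matches overlap, and a match of letters describes the sequence only. The 17492 genes were not matched to the members for expression or base composition. Whether the members' shares differ from those of like genes was not tested. The windows of the 2 genes with an unadjusted p under 0.05, Ndufa12 at chr10:94198785-94199084 (plus strand) and Ndufb10 at chr17:24724374-24724673 (minus strand), are shown with that of Atp5g3 at chr2:73911277-73911576 (minus strand), which holds matches to 2 motifs. Each is written 5′ to 3′ on the gene's own strand, from RefSeq on GRCm38.p6, and capitals mark motif matches.
Ndufa12: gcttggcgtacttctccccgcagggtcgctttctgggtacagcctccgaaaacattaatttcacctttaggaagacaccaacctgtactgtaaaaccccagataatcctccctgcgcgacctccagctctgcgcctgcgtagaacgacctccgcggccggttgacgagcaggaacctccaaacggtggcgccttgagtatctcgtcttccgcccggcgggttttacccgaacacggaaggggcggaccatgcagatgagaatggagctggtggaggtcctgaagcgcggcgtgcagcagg
Ndufb10: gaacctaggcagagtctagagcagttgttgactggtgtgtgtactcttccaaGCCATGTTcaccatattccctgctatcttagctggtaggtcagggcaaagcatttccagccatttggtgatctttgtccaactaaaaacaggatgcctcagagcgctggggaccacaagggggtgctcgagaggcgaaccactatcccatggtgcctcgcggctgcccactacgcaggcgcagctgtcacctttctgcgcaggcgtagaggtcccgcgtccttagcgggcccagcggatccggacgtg
Atp5g3: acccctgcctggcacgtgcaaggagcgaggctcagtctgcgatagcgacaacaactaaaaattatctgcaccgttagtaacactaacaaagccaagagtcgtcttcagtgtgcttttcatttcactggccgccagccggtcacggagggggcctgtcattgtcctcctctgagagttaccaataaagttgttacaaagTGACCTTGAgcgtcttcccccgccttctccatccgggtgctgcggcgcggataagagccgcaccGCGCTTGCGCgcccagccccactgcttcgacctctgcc
Ndufa12 has no match, Ndufb10 has a YY1 match on the opposite strand, and Atp5g3 has an ERR match followed by an NRF1 match, both on the opposite strand.

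Complex II, succinate dehydrogenase, was represented by 3 genes. Sdhb, the iron-sulfur subunit, had levels of 9.75, 11.14, 10.65 and 11.12 in VP16LXRa tumours, against 10.95, 11.14, 11.08 and 10.50 in VP16 tumours. VP16LXRa tumour 5 was the lowest, and the other 7 overlapped. The log2 difference was -0.25 ± 0.34 (SE) with all arrays, 0.05 without that tumour and -0.40 without VP16 tumour 4. All 3 Sdhb probes were lowest in VP16LXRa tumour 5. The ranges of both membrane anchors overlapped between groups. Sdhc had 12.29, 12.39, 12.31 and 12.12 in VP16LXRa tumours, against 12.46, 11.98, 11.83 and 12.21 in VP16 tumours, and Sdhd had 9.72, 10.04, 9.98 and 9.82 in VP16LXRa tumours, against 10.18, 9.89, 9.53 and 9.17 in VP16 tumours. The difference was 0.16 ± 0.21 (SE) for Sdhc. For Sdhd it was 0.19 ± 0.26 (SE), and 0.02 without VP16 tumour 4, the lowest of the 8.

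In complex III, 4 of 6 genes were tested and all 4 had a difference above 0, with a median of 0.11 and none past the threshold. That was 3 of 4 without VP16LXRa tumour 5, with a median of 0.06, and without VP16 tumour 4 all 4, with a median of 0.05. The core protein Uqcrc1 had levels of 12.69, 12.46, 12.61 and 12.93 in VP16LXRa tumours, against 12.59, 12.19, 12.85 and 12.16 in VP16 tumours, a log2 difference of 0.22 ± 0.23 (SE), or 0.13 without VP16 tumour 4. The small subunit Uqcr, now Uqcr11, had 13.63, 13.14, 13.23 and 13.19 in VP16LXRa tumours, against 13.51, 13.08, 13.08 and 12.97 in VP16 tumours. Its difference was 0.14 ± 0.22 (SE), and 0.03 without VP16LXRa tumour 5, the highest of the 8. The groups overlapped. For the hinge protein Uqcrh the levels were 14.10, 13.78, 13.66 and 13.87 in VP16LXRa tumours, against 13.92, 13.80, 13.77 and 13.63 in VP16 tumours, with a difference of 0.07 ± 0.20 (SE), 0.02 without VP16 tumour 4 and -0.0095 without VP16LXRa tumour 5. The remaining genes, the Rieske protein Uqcrfs1 and Uqcrq, were each detected on only 1 array, of a VP16 tumour, and were not tested.

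In complex IV, cytochrome c oxidase, 12 of 17 genes were tested, 8 with a difference above 0 and 4 below, with a median of 0.03. The split was 6 to 6 without VP16LXRa tumour 5, with a median of 0.01, and 5 to 7 without VP16 tumour 4, with a median of -0.05. Several of its subunits exist as tissue isoforms. Cox4i1, the broadly expressed form of subunit 4, had levels of 14.36, 14.02, 14.65 and 14.16 in VP16LXRa tumours, against 14.81, 14.36, 14.00 and 14.02 in VP16 tumours, and a log2 difference of -0.0022 ± 0.26 (SE; limma adjusted p = 0.999), or -0.097 without VP16 tumour 4. Its counterpart Cox4i2, best known from lung, was detected on no array. Cox6a1 was detected throughout, with 12.95, 13.52, 13.81 and 13.79 in VP16LXRa tumours, against 14.30, 13.93, 13.88 and 13.54 in VP16 tumours. VP16LXRa tumour 5 was the lowest and VP16 tumour 1 the highest, and the difference was -0.39 ± 0.27 (SE). It was -0.21 without VP16LXRa tumour 5, -0.27 without VP16 tumour 1 and -0.52 without VP16 tumour 4. The other tested Cox6a1 probe gave -0.36 ± 0.34 (SE). The muscle form Cox6a2 was detected on no array.

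Cox7a1, the muscle form of subunit 7a, was detected on all 8 arrays, unlike Cox6a2. Its levels were 11.97, 11.59, 11.51 and 12.09 in VP16LXRa tumours, against 11.14, 12.08, 11.40 and 9.98 in VP16 tumours. VP16 tumour 4 was far below the other 7, and the log2 difference of 0.64 ± 0.41 (SE) was 0.25 without it. The smooth muscle markers, 8 of 8 tested, all had a difference above 0 and none passed the threshold. Their score, the mean log2 deviation from the 8-array mean, was 0.07 to 1.04 in VP16LXRa tumours and -2.78 to 0.66 in VP16 tumours. The smooth muscle score was lowest in VP16 tumour 3 and was -0.52 in VP16 tumour 4. Of the 6 striated muscle markers, Acta1 was detected on all 8 arrays, Myl1 on 7, Ckm on 6, Myh1 on 1, and Myh7 and Tnnt3 on none. Their score over the 3 tested was -0.37 to 0.51 in VP16LXRa tumours and -0.80 to 0.59 in VP16 tumours, lowest in VP16 tumour 4. The part of either tissue in the Cox7a1 values was not tested. Cox7a2, the broadly expressed form, had 9.54, 9.19, 9.12 and 9.26 in VP16LXRa tumours, against 9.14, 8.99, 9.31 and 8.16 in VP16 tumours, with a difference of 0.38 ± 0.28 (SE). VP16 tumour 4 was again the lowest, and the difference was 0.14 without it. Cox7a2l had 8.32, 11.30, 10.98 and 11.22 in VP16LXRa tumours, against 10.92, 11.10, 11.16 and 11.23 in VP16 tumours. Only VP16LXRa tumour 5 stood apart, and the difference of -0.65 ± 0.61 (SE) was 0.06 without it.

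Of the other complex IV genes, Cox6c had levels of 13.37, 13.06, 12.53 and 13.24 in VP16LXRa tumours, against 12.35, 12.67, 12.97 and 12.01 in VP16 tumours. The groups overlapped in VP16LXRa tumour 7, and the log2 difference was 0.55 ± 0.28 (SE; limma adjusted p = 0.998). It was 0.39 without VP16 tumour 4, the lowest of the 8, and 0.71 without VP16LXRa tumour 7. Cox6b1 had 14.36, 13.70, 13.90 and 13.46 in VP16LXRa tumours, against 14.11, 13.96, 13.38 and 13.72 in VP16 tumours. Its 2 probes gave log2 differences of 0.06 and -0.26, and the first gave -0.11 without VP16LXRa tumour 5, the highest of the 8. The testis form Cox6b2 had 2 probes, of which 1 was detected on 1 VP16 array alone and was not tested. The other had levels of 6.76, 5.87, 6.56 and 7.55 in VP16LXRa tumours, against 6.13, 7.21, 6.77 and 6.52 in VP16 tumours. These ranges overlapped widely, with a difference of 0.03 ± 0.38 (SE). Cox7b had 8.58, 8.44, 8.26 and 8.34 in VP16LXRa tumours, against 8.67, 8.75, 8.43 and 7.63 in VP16 tumours, and a difference of 0.04 ± 0.28 (SE), or -0.21 without VP16 tumour 4, the lowest. Cox7b2 and Cox8c were detected on no array, and Cox8b on 1 of 4 VP16LXRa arrays and 2 of 4 VP16 arrays, so none of the 3 was tested. Together with Ndufs1, a complex I core subunit whose single probe was detected on no array, these complete the 8 member genes that were not tested.

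In complex V all 16 genes were tested, 10 with a difference above 0 and 6 below, with a median of 0.06 and none past the threshold. The split was 14 to 2 without VP16LXRa tumour 5, with a median of 0.07. With single arrays left out, the median lay between 0.03 (without VP16LXRa tumour 6) and 0.15 (without VP16LXRa tumour 7). Of the 5 genes of the catalytic F1 part, 4 were above 0. Atp5b, the catalytic beta subunit, had levels of 14.94, 15.23, 15.01 and 14.85 in VP16LXRa tumours, against 15.11, 14.87, 14.80 and 15.15 in VP16 tumours, a log2 difference of 0.03 ± 0.20 (SE), or 0.08 without VP16 tumour 4. Atp5a1, the alpha subunit, had 11.61, 11.39, 11.23 and 11.71 in VP16LXRa tumours, against 11.20, 10.97, 11.31 and 10.75 in VP16 tumours. VP16 tumour 3 lay above VP16LXRa tumour 7, so the groups overlapped, and the difference was 0.43 ± 0.22 (SE; limma adjusted p = 0.998). It was 0.32 without VP16 tumour 4, the lowest, and 0.51 without VP16LXRa tumour 7. Atp5e, the epsilon subunit of the central stalk, had 9.57, 8.83, 9.03 and 8.78 in VP16LXRa tumours, against 8.88, 8.90, 8.72 and 7.71 in VP16 tumours. The difference of 0.49 ± 0.32 (SE) was 0.21 without VP16 tumour 4, the lowest.

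The c subunit forms the membrane ring, and probes for 2 of its genes were present. Atp5g3 was among the steadiest members, with levels of 15.13, 15.05, 14.94 and 15.01 in VP16LXRa tumours, against 14.99, 14.94, 15.01 and 14.83 in VP16 tumours, and a log2 difference of 0.09 ± 0.18 (SE), or 0.05 without either VP16LXRa tumour 5 or VP16 tumour 4. Atp5g2 had 9.55, 11.05, 10.99 and 10.49 in VP16LXRa tumours, against 10.92, 10.97, 9.99 and 11.17 in VP16 tumours. VP16LXRa tumour 5 was the lowest, and the difference of -0.24 ± 0.39 (SE) was 0.08 without it. The genes of the stalk and membrane parts, 9 in all, had a median difference of 0.02, with 5 above 0. Without VP16LXRa tumour 5 the median was 0.05, with 8 above 0. Atp5f1, subunit b of the peripheral stalk, was chosen after its values were seen. It had 7.06, 11.46, 10.91 and 11.37 in VP16LXRa tumours, against 11.27, 11.19, 11.12 and 11.28 in VP16 tumours. The difference of -1.01 ± 0.87 (SE), the lowest of all members by the probe used for each gene, was 0.03 without VP16LXRa tumour 5.

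The scanner signal of the Atp5f1 probe before any correction was 197.5, 3281, 1807 and 2947 in VP16LXRa tumours, against 2291, 2272, 3145 and 2452 in VP16 tumours. The low value of VP16LXRa tumour 5 was thus already in the deposited intensities. Setting each gene on each array against the median of the other 7 arrays, 9 members lay more than 1 log2 unit below in VP16LXRa tumour 5. Among them were Atp5f1 (-4.20), Cox7a2l (-2.84), Ndufc2 (-2.64), Atp5o (-2.26), Atp5d (-2.12), Atp5g2 (-1.41), Sdhb (-1.33) and Ndufb11 (-1.16). They were listed for this departure alone, after their values were seen. This was 13.0% of the members, against 8.97% of all tested genes on that array. In VP16 tumour 4 there were 6 members, Cox7a1 (-1.62), Atp5e (-1.17), Ndufb10 (-1.15), Ndufb9 (-1.14), Ndufb4 (-1.05) and Cox7a2 (-1.04), or 8.70% against 6.58% of all tested genes. None of the named genes was in both lists. VP16 tumour 1 had 1 such member, Ndufa4 (-1.11), and the other 5 tumours had 0, against 1.07% to 7.34% of all tested genes. No member lay more than 1 above the other 7 arrays in any tumour, against 1.88% to 8.52% of all tested genes. Members and all genes were not matched for level here either.

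**Figure D3:**
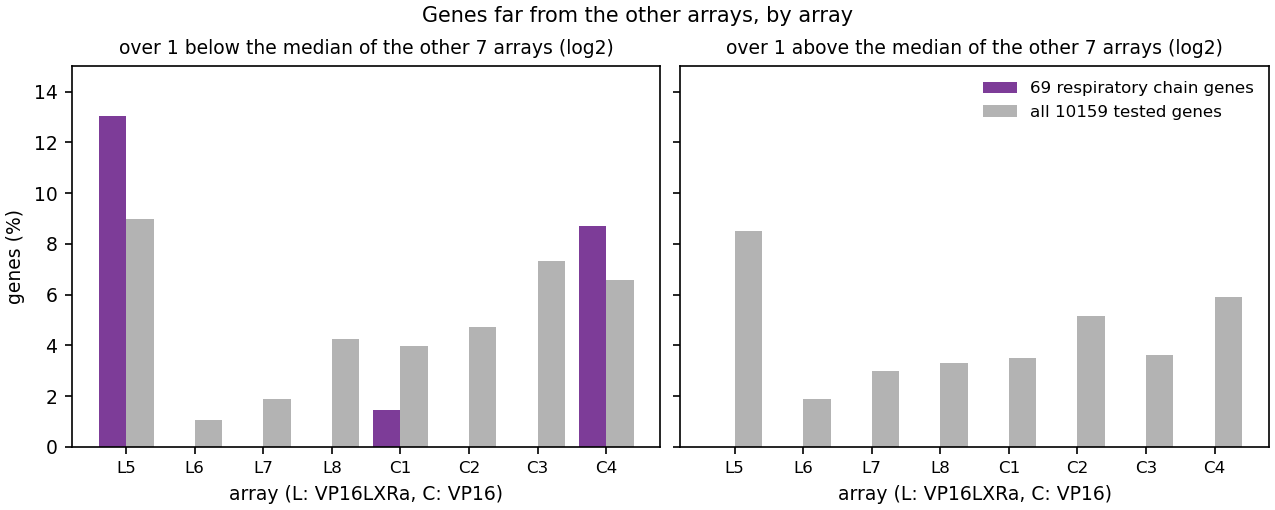
Share of genes more than 1 log2 unit below (left) or above (right) the median of the other 7 arrays, for each array, in the 69 tested respiratory chain genes and in all 10159 tested genes. Members lay below mainly in VP16LXRa tumour 5 (13.0%) and VP16 tumour 4 (8.70%), and no member lay above on any array.

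Where a gene had several probes, they often disagreed in VP16LXRa tumour 5. For the 13 members with more than 1 tested probe, the range between a gene's probes, each taken as its deviation from its own 8-array mean, had a median of 0.53 and a maximum of 3.64 log2 units in that tumour. In VP16 tumour 4 the median was 0.31 and the maximum 1.53, and in the other 6 tumours the medians were 0.14 to 0.24. Atp5j, subunit F6 of the peripheral stalk, had 3 tested probes whose differences lay furthest apart. Probe ILMN_2611261 had levels of 4.73, 8.37, 8.46 and 8.56 in VP16LXRa tumours, against 8.49, 8.27, 8.60 and 8.90 in VP16 tumours, and a log2 difference of -1.03 ± 0.78 (SE), or -0.097 without VP16LXRa tumour 5, where it was not detected. Probe ILMN_2962632 had 13.35, 13.23, 12.99 and 13.24 in VP16LXRa tumours, against 13.15, 13.04, 12.93 and 13.26 in VP16 tumours, and a difference of 0.11 ± 0.19 (SE), or 0.06 without VP16LXRa tumour 5 and 0.17 without VP16 tumour 4. VP16LXRa tumour 5 was the highest of the 8 by this probe and the lowest by the other. The third probe, ILMN_2632890, gave 0.41 ± 0.23 (SE), or 0.26 without VP16 tumour 4.

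**Figure D4:**
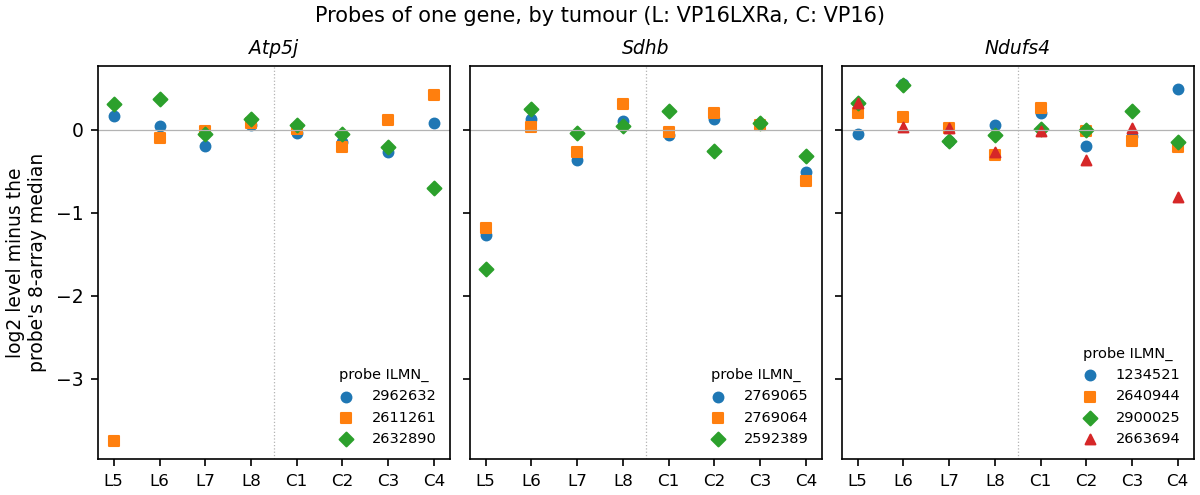
Log2 level of each tested probe minus its median over the 8 arrays, for 3 genes with several probes, by tumour (L for VP16LXRa, left of the dotted line, and C for VP16, right of it). In VP16LXRa tumour 5 (L5) Atp5j probe ILMN_2611261, at 4.73, lay far below its median while the other 2 lay above theirs, and the 3 Sdhb probes were all low.

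Averaged over genes, the tumours differed more within a group than between groups. The score of the 69 members was -0.10, 0.12, 0.02 and 0.10 in VP16LXRa tumours, against 0.14, 0.0023, -0.06 and -0.21 in VP16 tumours. The means were 0.03 ± 0.10 in VP16LXRa tumours and -0.03 ± 0.15 in VP16 tumours (SD, n = 4 each). Their difference of 0.07 was 0.0097 without VP16 tumour 4 and 0.13 without VP16 tumour 1, the extremes with single arrays left out. VP16 tumour 4 had the lowest score of complexes I, III and IV, at -0.16, -0.26 and -0.42. VP16LXRa tumour 5 had the lowest of complexes II and V, at -0.34 and -0.33, yet the highest of complex III, at 0.20. The enterocyte markers, 5 of 5 tested and all detected on all arrays, had scores of -0.08 to 1.24 in VP16LXRa tumours and -1.99 to 0.98 in VP16 tumours. All 5 had a difference above 0, with a median of 0.60, and none passed the threshold. Their lowest score was in VP16 tumour 4, which also had the lowest member score. The next lowest, -1.36, was in VP16 tumour 1, which had the highest member score. Of the 9 epithelial markers, all tested, 1 had a difference above 0 and 8 below, with a median of -0.08 and 0 past the threshold. Fabp6 gave -0.05. The part of enterocyte or epithelial content in the members' values was not tested.

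**Figure D5:**
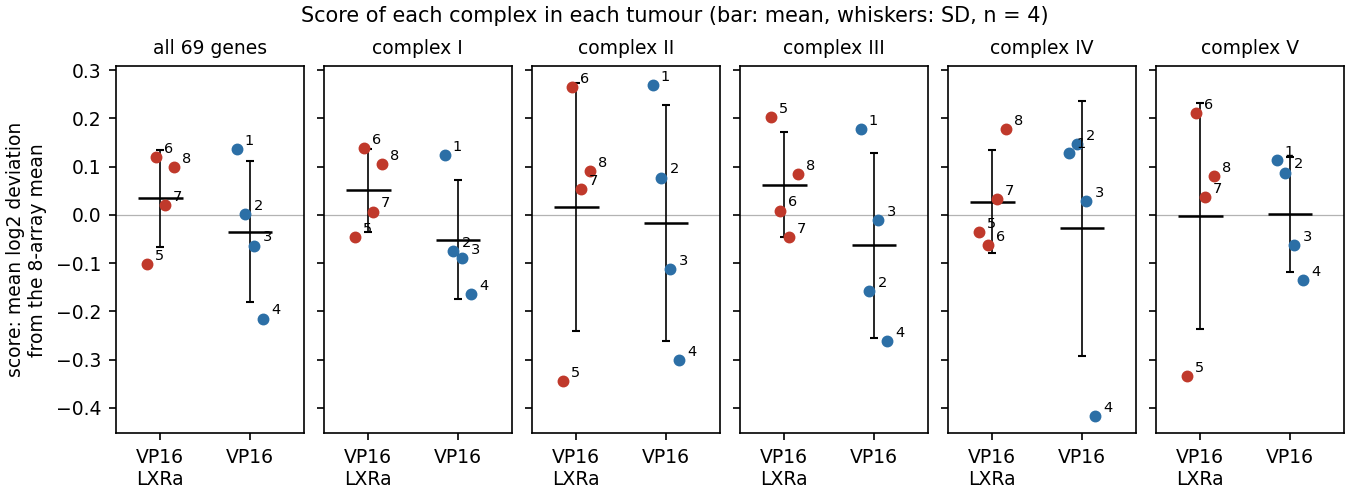
Score of each complex in each tumour, the mean log2 deviation of its tested genes from their 8-array means, with VP16LXRa left and VP16 right, replicate numbers beside the points, the mean as a bar and the SD as whiskers (n = 4 each). The groups overlap in every panel, VP16 tumour 4 is lowest in complex IV at -0.42, and VP16LXRa tumour 5 is lowest in complex V at -0.33.

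Genes that act with the respiratory chain were counted from lists made for this comparison, and 0 genes of any of them passed the adjusted threshold. Of the regulators of mitochondrial biogenesis, 15 of 17 were tested, 11 with a difference above 0 and 4 below, with a median of 0.15. The groups did not overlap for 2 of the 15, Ppargc1a and Gabpb1, which were chosen after their values were seen. Over all 10159 tested genes, VP16LXRa lay above VP16 without overlap for 116 and below for 73. Ppargc1a, a coactivator that drives mitochondrial gene expression, had levels of 8.74, 7.95, 8.11 and 8.06 in VP16LXRa tumours, against 6.50, 7.67, 6.38 and 6.76 in VP16 tumours. All VP16LXRa tumours lay above all VP16 tumours, with a log2 difference of 1.38 ± 0.33 (SE; limma adjusted p = 0.998). Gabpb1, the beta subunit of GABP, had 6.42, 6.01, 6.08 and 6.10 in VP16LXRa tumours, against 6.49, 6.54, 6.67 and 6.55 in VP16 tumours, a difference of -0.41 ± 0.19 (SE), below 0. Of the enzymes of the tricarboxylic acid cycle, which supplies NADH and succinate, 17 of 17 were tested, 15 above 0 and 2 below, with a median of 0.21. Of the 17, 1 gene had an unadjusted limma p under 0.05 and was above 0, as were 194 of all 10159 tested genes. At that threshold 0 of the 17 were below 0, against 68 of all tested genes. The 1 gene was Mdh2, the malate dehydrogenase of the cycle. Its levels were 11.93, 12.38, 12.19 and 12.37 in VP16LXRa tumours, against 11.02, 11.98, 11.34 and 11.29 in VP16 tumours. VP16 tumour 2 overlapped VP16LXRa tumour 5, and the difference was 0.81 ± 0.25 (SE; limma adjusted p = 0.998). Among the assembly factors outside the symbol rule, 15 of 17 were tested, with 10 above 0, 5 below and a median of 0.12. Cytochrome c and further subunits outside the rule gave 4 tested genes, 3 above 0 and 1 below, with a median of 0.23.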

How the data were processed

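Biotinylated cRNA from total RNA of ileal tumours was hybridised to Illumina BeadChips, per the labels' protocols, giving 8 arrays, 4 VP16LXRa and 4 VP16. For each probe the deposited scanner table gives an average signal, a linear intensity without visible background subtraction or normalization. Beside it stands a detection p-value, computed by the authors' scanner software against negative control beads, per the file headers. The submitters' processing notes name GenomeStudio and no version. Chip type and annotation release are not stated in these sources. The authors' second, processed table holds intensity values of which 5897 to 5985 per array lie below 0, with medians of 20.1 to 20.4. From its values it is background-subtracted and normalized between arrays. It was tried in place of the scanner table, floored at 16 ahead of the log2 step.

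In limma 3.58.1 (R 4.3.3), normexp with an offset of 16 removed background, using negative controls that limma infers from the detection values, and the arrays were then quantile-normalized and put on a log2 scale. Tested were probes detected (p under 0.05) on 4 or more of the 8 arrays, by lmFit and eBayes, two-sided, with adjustment over all 13426. Differences are VP16LXRa minus VP16. The tested probe of highest mean stood for each gene. Levels of different probes cannot be set against each other, and the number of arrays limits the precision.

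The members and the gene lists were chosen with earlier results of these data known, so no test of the list as a whole is given. Named genes were, in each complex, the brightest and the 2 of smallest p, the members of isoform sets, those whose groups do not overlap and those with probes over 1 log2 unit apart, 31 in all; others are marked where named. The values of 1 member gene are not reported here, though it is included in the counts and medians. The script was tested on simulated data. Alternatives covered background correction, offset, normalization, filter, array weights, variance prior, source table, probe choice and each array left out.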

Additional observations from a re-analysis of the deposited data

Results flagged for a closer look

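The tested member probes, except those of 1 gene, and the scores of all members and of complexes I to V were examined in each group of 4 tumours, 180 sets in all. In 12 of them the lowest or highest tumour's gap to the nearest other tumour, divided by the group's whole range, exceeded Dixon's 95% critical value. Chance flags about 1 in 20 such sets, or 9 of 180, and none of the scores was among the 12.

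VP16LXRa tumour 5 stood apart in 6 sets and was the lowest in 5 of them. The ratio was 0.951 for Atp5j probe ILMN_2611261 (4.73, with 8.37 to 8.56 in the other VP16LXRa tumours) and 0.907 for Ndufc2 (9.11, with 11.65 to 11.91). It was 0.893 for Cox7a2l (8.32, with 10.98 to 11.30), 0.874 for Atp5f1 (7.06, with 10.91 to 11.46) and 0.848 for Sdhb probe ILMN_2592389 (4.50, with 6.13 to 6.43). For Ndufa2 it was the highest, with a ratio of 0.890 (12.99, with 12.43 to 12.49).

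VP16 tumour 4 stood apart in 4 sets, each time as the lowest. The ratio was 0.894 for Ndufb9 (8.83, with 9.96 to 10.10 in the other VP16 tumours), 0.888 for Atp5d (12.12, with 12.74 to 12.82), 0.866 for Ndufb5 (9.08, with 9.35 to 9.39) and 0.851 for Atp5e (7.71, with 8.72 to 8.90). The remaining sets were Ndufc1 probe ILMN_2983247, highest in VP16LXRa tumour 6 with a ratio of 0.838, and Atp5c1, lowest in VP16 tumour 3 with a ratio of 0.844.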

How the results depend on the processing

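No member probe passed the adjusted threshold under any alternative run, and the median difference of members stayed above 0, at 0.05 to 0.17 with single arrays left out and 0.07 to 0.17 otherwise. The lowest limma adjusted p of any member was 0.760, with array weights. Among the named genes, Ndufa12, Ndufb10, Cox6c, Cox6a1 and Ndufa4 shared it. Scaling to the median put 79.7% of members and 55.2% of all genes above 0, against 69.6% and 53% as reported. The complex IV median changed sign with array weights (-0.10) and without VP16 tumour 4 (-0.048). Over all probes, 0 passed as reported, 1 at an adjusted p of 0.1, 1 with cyclic loess, 2 with array weights, and 0 to 2 with single arrays left out (2 without VP16LXRa tumour 5, Csrp1 and Mcm6; 1 without VP16LXRa tumour 8, S100g; 1 without VP16 tumour 3, Tor1aip2).

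Of 503 recomputed differences of named probes, 31 changed sign. With median scaling these were Cox4i1 (0.095) and Ndufa13 (0.027), and with cyclic loess Cox4i1 (0.026), Cox6b2 (-0.044) and Cox7b (-0.021). With array weights they were Atp5g2 (0.074), Cox6b1 (-0.13), Cox6b2 (-0.22), Cox7b (-0.12), Uqcr (-0.040) and Uqcrh (-0.037). Leaving out single arrays gave ranges of -0.049 to 0.082 for Atp5b, -0.50 to 0.080 for Atp5g2, -0.11 to 0.17 for Cox4i1, -0.11 to 0.19 for Cox6b1, -0.26 to 0.30 for Cox6b2, -0.94 to 0.062 for Cox7a2l, -0.21 to 0.17 for Cox7b, -0.18 to 0.023 for Ndufa13, -0.41 to 0.053 for Sdhb and -0.0095 to 0.14 for Uqcrh. The causes were not tested.

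No paired analysis was possible because the groups share no replicate number. The chip as a block was not run, since the files name no chips. The precision is limited by 4 arrays in each group, and by dim probes where detection was partial.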

Other observations

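Subunits of the mitochondrial ribosome, which translates the subunits encoded by mitochondrial DNA, were taken by the symbol prefixes Mrpl and Mrps, a choice made after the tables were seen. Of 72 such genes, 67 were tested, 47 with a difference above 0 and 20 below. Their median log2 difference was 0.09, like the median of the respiratory chain members, and 0 passed the adjusted limma threshold. An unadjusted limma p under 0.05 was found for 2 of the 67, both above 0, as for 194 of all 10159 tested genes.

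Carriers and channels of the mitochondrial membranes were mostly below 0, 7 of 8 tested genes, with a median of -0.08. Vdac3, a channel of the outer membrane chosen after its values were seen, averaged 10.07 ± 0.54 in VP16LXRa tumours and 10.68 ± 0.40 in VP16 tumours (SD, n = 4 each). Of the mitochondrial antioxidant enzymes, 5 of 7 were below 0, with a median of -0.06. The lowest, Txnrd2, a mitochondrial thioredoxin reductase, averaged 7.70 ± 0.29 in VP16LXRa tumours and 8.34 ± 0.43 in VP16 tumours, a log2 difference of -0.64 ± 0.27 (SE; limma adjusted p = 0.998). Both lists had their lowest score in VP16LXRa tumour 5, at -0.39 and -0.41, and this array's part in them was not tested.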
